A study of Mus musculus with 59 samples.

Results

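Bulk muscle samples hold RNA from every cell left in the dissected tissue, and fat cells lie among and around muscle fibers. The 10 adipocyte genes described here were the rows named Adipoq, Lep, Retn, Cfd, Plin1, Cidec, Fabp4, Pparg, Adrb3 and Ucp1 in an expression table of 47643 genes and 59 mouse muscle libraries. All 10 were found, and their levels were followed library by library across 3 muscles and 8 groups. The mice were females of the strain NCI Ath/nude, aged 4 months, which lack a thymus and mature T cells but keep B cells. Every mouse carried a human melanoma grown from a patient-derived xenograft in the flank. In the cachectic (CAC) groups the melanoma was one that causes muscle wasting, and in the non-cachectic (NONCAC) groups it was a different melanoma that does not, so that each group stands for 1 tumor stock and no group lacked a tumor. Diaphragms (Dia) were from CAC mice given mock injections (n = 10), NONCAC mice given mock injections (n = 9), CAC mice given rFibcd1 (n = 10) and NONCAC mice given rFibcd1 (n = 10). Here rFibcd1 is recombinant Fibcd1, a secreted protein tested against atrophy of the diaphragm and injected into the peritoneum. Mock injections held bovine serum albumin in phosphate-buffered saline. Tibialis anterior (TA) and soleus (SOL) muscles were from CAC (n = 5 each) and NONCAC (n = 5 each) mice, with no treatment given in the labels. The study's text gives fewer diaphragms in both CAC groups than the labels list libraries, so some CAC libraries may not be separate mice, and p-values then measure only the spread between libraries. Libraries are called below by the number in their column heading, which could not be tied to the replicate number in the labels.

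White adipocytes store triglyceride in a single large lipid droplet and release fatty acids when catecholamines act on beta-adrenergic receptors. Plin1 coats the droplet and gates the access of lipases, and Cidec joins droplets into a larger one. Fabp4 carries fatty acids within adipocytes, and also in capillary endothelium and macrophages. Pparg is the nuclear receptor that drives adipocyte differentiation, and Adrb3 is the beta-adrenergic receptor found mostly on rodent adipocytes. Adipoq (adiponectin), Lep (leptin), Retn (resistin) and Cfd (adipsin, complement factor D) are secreted, with leptin signaling the size of fat stores to the brain. Ucp1 uncouples respiration to make heat in brown and beige adipocytes. Cachexia depletes white fat as well as muscle, which makes these genes of interest in wasting muscle.

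On mouse genome GRCm38 (GENCODE M21) Adipoq lies at chr16:23146536-23158028, Lep at chr6:29060220-29073877, Retn at chr8:3655770-3660110, Cfd at chr10:79890853-79892655 and Ucp1 at chr8:83290352-83298452, all on the plus strand. Plin1 lies at chr7:79720218-79732903, Cidec at chr6:113424634-113435760 and Fabp4 at chr3:10204088-10208576, all on the minus strand. Pparg (chr6:115360951-115490399, plus strand) overlaps Gm44079 on the other strand, and Adrb3 (chr8:27225776-27250616, minus strand) overlaps Gm45470 on the other strand. Whether reads were counted by strand was not resolved, so reads of those pairs may not have been told apart.

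Because most of these genes moved together between libraries, their promoters were searched for letters they might share. RefSeq start sites on GRCm38.p6 gave 11 windows of 300 bases (250 before the start and 50 after it) for 8 of the 10 genes, all but Fabp4 and Adrb3. The motif TTGCNNAA, a binding sequence of the C/EBP family that acts with Pparg in adipogenesis, was found on either strand in 4 windows, 1 each of Lep, Plin1, Cidec and Pparg, and in 10.8% of 32851 mouse promoter windows. Counted from the start site, the first base of a match lay at -55 in Lep, at -187 and -58 in Plin1, at -198 at start 1 of Cidec, and at -215 and -16 at start 3 of Pparg. These 4 windows are shown on the strand of the gene, 5′ to 3′, with the matches in capitals.
Lep promoter, chr6:29059971-29060270, plus strand: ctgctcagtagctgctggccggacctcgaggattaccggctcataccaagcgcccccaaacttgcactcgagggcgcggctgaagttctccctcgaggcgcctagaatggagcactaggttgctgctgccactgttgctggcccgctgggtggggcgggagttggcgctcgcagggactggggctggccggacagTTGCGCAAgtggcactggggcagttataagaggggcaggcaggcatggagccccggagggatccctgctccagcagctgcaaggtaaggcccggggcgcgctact
Plin1 promoter, chr7:79732727-79733026, minus strand: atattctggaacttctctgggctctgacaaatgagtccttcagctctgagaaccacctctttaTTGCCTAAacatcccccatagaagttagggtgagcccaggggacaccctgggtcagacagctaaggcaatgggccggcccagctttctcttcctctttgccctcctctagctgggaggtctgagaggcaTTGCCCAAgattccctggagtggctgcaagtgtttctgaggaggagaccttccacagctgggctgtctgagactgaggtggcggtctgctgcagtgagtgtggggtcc
Cidec promoter, start 1, chr6:113434715-113435014, minus strand: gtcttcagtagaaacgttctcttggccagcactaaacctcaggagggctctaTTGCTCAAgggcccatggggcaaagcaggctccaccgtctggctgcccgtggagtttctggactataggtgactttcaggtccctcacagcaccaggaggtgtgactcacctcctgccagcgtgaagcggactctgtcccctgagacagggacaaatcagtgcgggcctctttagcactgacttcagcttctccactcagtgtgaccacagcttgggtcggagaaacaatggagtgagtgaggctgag
Pparg promoter, start 3, chr6:115421816-115422115, plus strand: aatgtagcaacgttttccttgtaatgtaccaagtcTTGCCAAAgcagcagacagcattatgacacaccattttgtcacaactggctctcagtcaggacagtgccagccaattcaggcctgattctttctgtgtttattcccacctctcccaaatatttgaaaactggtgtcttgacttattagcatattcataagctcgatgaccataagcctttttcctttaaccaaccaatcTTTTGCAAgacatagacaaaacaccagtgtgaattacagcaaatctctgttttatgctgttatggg
No member window held a direct repeat of AGGNCA with 1 base between the copies, which Pparg binds with its partner, on either strand (0.381% of all windows did), or TATAAA on the strand of the gene (8.32% of all windows). The matches describe these letters only.

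Expression is given in TPM, transcripts per 1000000 with reads scaled for gene length, so that genes can be compared within a library. The sequencing depth is unknown, since TPM keeps none. Between 17950 and 19456 genes were above 0 in diaphragm, 16436 and 17673 in TA, and 17514 and 18191 in SOL. The fast myosin Myh4 had a median of 12271 TPM in TA and 28.0 TPM in SOL, and the slow myosin Myh7 one of 1.02 TPM in TA and 5514 TPM in SOL, the known pattern of these muscles. SOL library 7 (CAC) stood apart with 4989 TPM of Myh4. The diaphragm libraries differed in Pcna-ps2, a pseudogene at 2 TPM or more in 26 of them (high state) and below it in 13 (low state). High-state libraries made up 9 of 10 CAC mock, 3 of 9 NONCAC mock, 8 of 10 CAC rFibcd1 and 6 of 10 NONCAC rFibcd1 diaphragms. In TA and SOL every CAC library was high and every NONCAC library low, so that this state and the melanoma cannot be told apart there. The share of mitochondrial transcripts also moved with the groups, with means between 30.5% and 38.8% in the 4 CAC groups and between 41.1% and 48.5% in the 4 NONCAC groups, and its part in the results below was not tested. In bulk tissue, fewer adipocytes and less RNA of a gene per adipocyte cannot be told apart.

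The muscle was the main divide. Adipocyte RNA was abundant in diaphragm and soleus and scarce in TA, and within diaphragm it differed between libraries of a group more than between groups. Adipoq ranged from 10.8 to 475 TPM over 39 diaphragm libraries (median 60.2 TPM), from 16.02 to 253 TPM over 10 SOL libraries (median 73.9 TPM) and from 2.07 to 5.36 TPM over 10 TA libraries (median 3.83 TPM). No TA library reached the lowest library of either other muscle. Within diaphragm the order of median levels ran from Fabp4 (809 TPM) and Cfd (483 TPM) to Adipoq (60.2 TPM), Cidec (56.8 TPM), Retn (29.6 TPM), Plin1 (10.3 TPM), Pparg (7.30 TPM), Adrb3 (3.95 TPM), Lep (0.624 TPM) and Ucp1 (0.271 TPM). The ranges of neighbors in that order overlapped. TA held the fatty acid carrier Fabp4 at a median of 331 TPM (279 to 472 TPM), whereas the secreted Cfd had a median of 31.5 TPM (18.9 to 51.7 TPM) and Plin1 one of 0.861 TPM (0.314 to 1.25 TPM). Fabp4 thus fell less from diaphragm to TA than the other abundant members did. The sum of 5 endothelial markers, another source of Fabp4, was between 84.7 and 226 TPM over the TA libraries and between 116 and 270 TPM over the diaphragm libraries, and its part in the Fabp4 level was not tested.

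**Figure D1:**
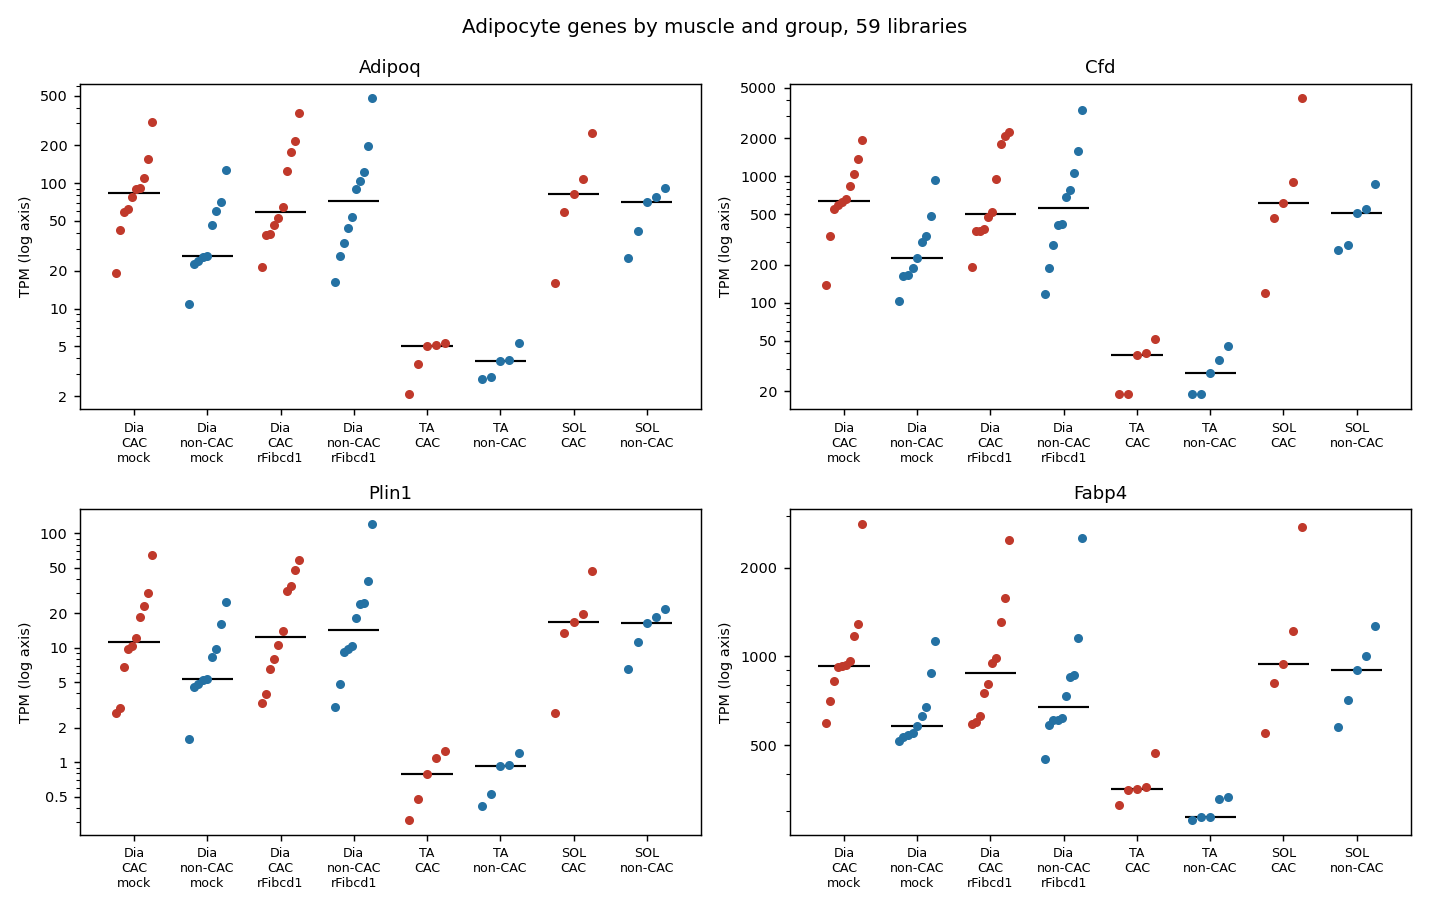
Levels of Adipoq, Cfd, Plin1 and Fabp4 in TPM (vertical log axes) in the 8 groups, 1 point per library, red for cachectic and blue for non-cachectic, with a black line at each group median. The 10 TA libraries lie below every diaphragm and SOL library in the Adipoq panel, while the 4 diaphragm groups overlap in every panel.

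The muscles were compared in NONCAC mice with mock injections or no stated treatment (9 diaphragm, 5 TA and 5 SOL libraries), with limma on log2(TPM + 1) over all genes. All log2 differences below are on that scale, which understates changes of low genes, and a gene is called at an adjusted p under 0.05 with Benjamini-Hochberg adjustment over all genes tested. Ucp1 was too low to be tested between muscles. Among the secreted proteins, Adipoq averaged 46.1 ± 36.4 TPM (SD, n = 9) in diaphragm, 3.71 ± 1.06 TPM (SD, n = 5) in TA and 61.4 ± 27.2 TPM (SD, n = 5) in SOL. Its difference of diaphragm from TA was 3.01 log2 units (SE 0.509) and that of TA from SOL was -3.62 log2 units (SE 0.577). In all, 8 of 9 tested members were called higher in diaphragm than in TA, against 72.5% of all genes called in either direction. The exception was Lep, with a difference of 0.61 log2 units (SE 0.393; limma adjusted p = 0.157). All 9 tested members were called lower in TA than in SOL, where 69.5% of all genes were called. The same 8 members did not overlap between diaphragm and TA in these groups, nor did all 9 between TA and SOL, against 61.7% and 71.3% of all genes. The background of called genes is high in both comparisons. The members' median difference was 2.19 log2 units between diaphragm and TA, where the median of all genes was 0.44, and -2.99 between TA and SOL, where it was -0.47. Markers of other cells were also higher in diaphragm than in TA: 4 of 4 for macrophages (median difference 2.44 log2 units), 6 of 6 for mesothelium (3.96), 4 of 4 for B cells (1.82), 5 of 5 for endothelium (0.86) and 7 of 7 for adipocyte progenitors (1.79). The size of the members' difference is therefore not particular to adipocyte genes, and the part of these cells in it was not tested.

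Between diaphragm and soleus 1 member was called. Lep was at 5.47, 4.98, 7.93, 1.70 and 6.93 TPM in NONCAC SOL libraries 61 to 65, and between 0.0735 and 4.83 TPM (median 0.706 TPM) in the 9 NONCAC mock diaphragms. Of the 5 SOL libraries 4 lay above every diaphragm library and the groups overlapped. Lep was lower in diaphragm by -1.69 log2 units (SE 0.393; limma adjusted p = 0.000796), where 38.8% of all genes were called. The other 8 tested members had differences between -0.88 and 0.17 log2 units and adjusted p of 0.186 or more in limma. Numbers 61 to 65 occur in all 3 muscles and may mark the same mice, a pairing considered with the limits of these tests.

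Many genes of lipid metabolism outside the 10 members also differed between diaphragm and TA, against the 72.5% of all genes called. Of 14 genes of fatty acid and triglyceride synthesis, 12 were called higher in diaphragm and none lower. Scd1, which makes monounsaturated fatty acids, averaged 266 TPM in diaphragm and 17.8 TPM in TA (3.71 log2 units, SE 0.631). The fatty acid synthase Fasn averaged 78.0 and 4.76 TPM (3.62 log2 units, SE 0.607), and Dgat2, which makes triglyceride, 160 and 17.6 TPM (3.13 log2 units, SE 0.172). Of 9 genes of fatty acid and glycerol uptake, 8 were called higher in diaphragm and 1 lower. The lower gene was Gpd1, which makes glycerol phosphate and averaged 101 TPM in diaphragm and 446 TPM in TA (-2.12 log2 units, SE 0.349). Lpl, the lipase that frees fatty acids from circulating lipoproteins, averaged 965 and 172 TPM. Many of these genes are also expressed in muscle fibers, and these lists are no measure of adipocytes alone.

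Within diaphragm the members rose and fell together from library to library. Library 56 (NONCAC rFibcd1) held 475 TPM of Adipoq, 319 TPM of Cidec, 120 TPM of Plin1 and 3361 TPM of Cfd, the highest diaphragm values of each. Library 61 (NONCAC mock) held 10.8, 9.27, 1.60 and 102 TPM, the lowest of each. The spread existed in every group: Adipoq ran from 19.2 to 306 TPM in CAC mock (median 83.7 TPM), from 10.8 to 128 TPM in NONCAC mock (median 26.2 TPM), from 21.6 to 360 TPM in CAC rFibcd1 (median 59.01 TPM) and from 16.1 to 475 TPM in NONCAC rFibcd1 (median 72.3 TPM).

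Likeness to Adipoq was measured over the 39 diaphragm libraries as the correlation of log2(TPM + 1) after the mean of each group was taken out. The droplet gene Cidec was closest (r = 0.983, Spearman rho 0.975), followed by Cfd (r = 0.967, rho 0.968), the droplet gene Plin1 (r = 0.944, rho 0.941) and Retn (r = 0.941, rho 0.948). Pparg (r = 0.911, rho 0.894), Adrb3 (r = 0.902, rho 0.887), Fabp4 (r = 0.800, rho 0.739), Lep (r = 0.743, rho 0.775) and Ucp1 (r = 0.659, rho 0.633) followed. Over these 9 pairs every adjusted permutation p of r was 1e-05, the smallest that 100000 permutations can give, and those of rho were 4e-05 or less. Without libraries 56 and 4, the farthest from the median of Adipoq, r ran from 0.980 for Cidec to 0.613 for Ucp1. Within the 26 high-state libraries Ucp1 had r = 0.736 and within the 13 low-state libraries r = -0.0114. All libraries are of 1 muscle and TPM is a share of a total, so that these values describe shared abundance.

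**Figure D2:**
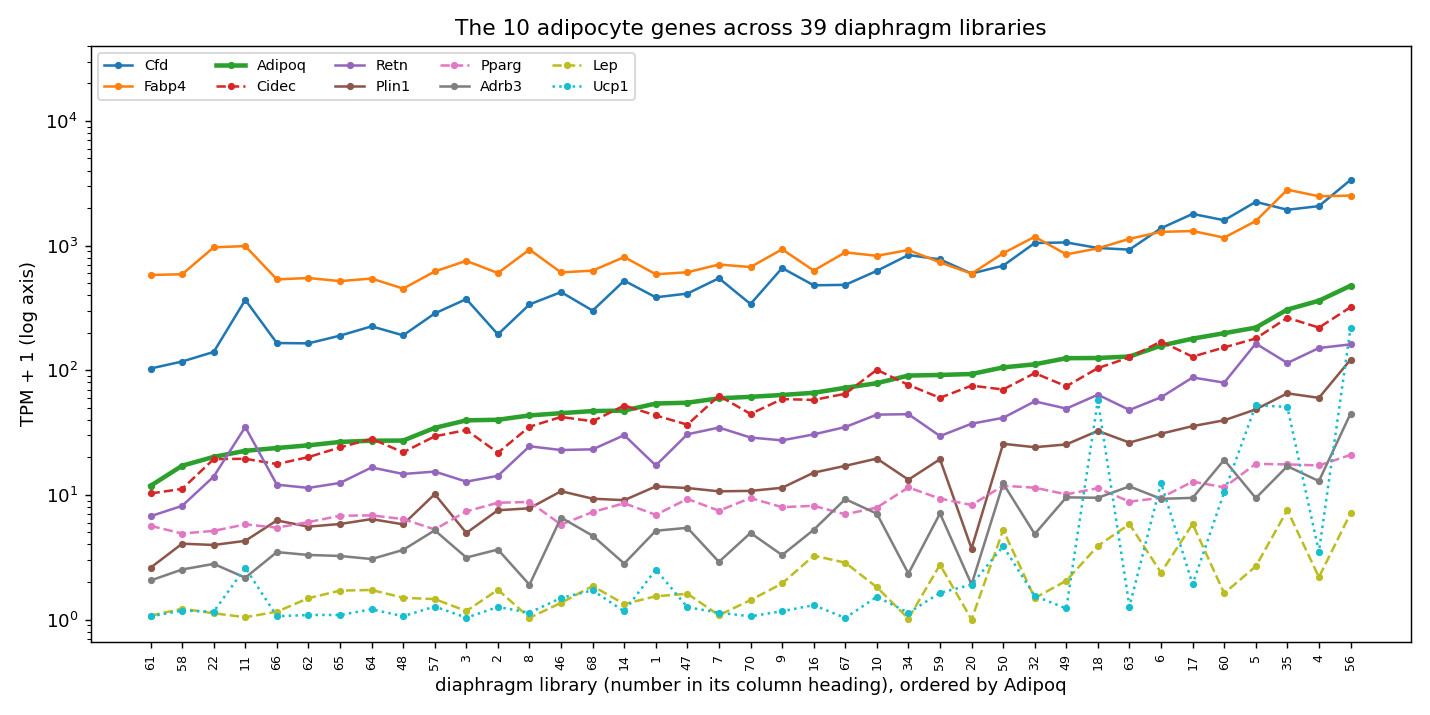
TPM + 1 (vertical log axis) of the 10 genes in the 39 diaphragm libraries, ordered from left to right by Adipoq (thick green line), 1 colored line per gene. The lines of Cidec, Cfd, Retn and Plin1 climb with Adipoq, while Lep and Ucp1 jump between neighboring libraries.

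Ranked among 13425 genes by r with Adipoq, Cidec was first, Cfd 4th, Plin1 8th, Retn 10th, Pparg 24th and Adrb3 31st, while Fabp4 stood at 167, Lep at 420 and Ucp1 at 1169. The genes outside the member list that were most like Adipoq were Car5b (r = 0.977), Slc36a2 (0.971), Arxes2 (0.959), Prkar2b (0.949), Slc7a10 (0.947), Dgat1 (0.942), Slc1a5 (0.939), Mrap (0.937), Gnai1 (0.932) and Slc1a3 (0.930), each over 39 libraries. Car5b is a mitochondrial carbonic anhydrase, Dgat1 makes triglyceride, Mrap helps the receptor of adrenocorticotropic hormone reach the cell surface, and Prkar2b is a regulatory subunit of protein kinase A. Markers of other cells were summed and compared with Adipoq in the same way, adjusted over 10 lists. The B cell markers went with it most closely (r = 0.816, rho 0.788, r = 0.776 without libraries 56 and 4, adjusted permutation p = 1e-04 for both). Their sum ranged from 2.75 to 238 TPM in CAC mock, 1.98 to 37.2 TPM in NONCAC mock, 7.27 to 208 TPM in CAC rFibcd1 and 2.78 to 443 TPM in NONCAC rFibcd1, and was at most 2.25 TPM in the limb muscles. Macrophage markers had r = 0.534, adipocyte progenitor genes 0.458, mesothelial markers 0.394, endothelial markers 0.322, Schwann cell markers 0.302, liver markers -0.0494, the brown and beige fat list -0.283 (a sum carried by Cox8b, Cox7a1 and Cpt1b, which muscle fibers also express, at means of 2378, 1082 and 353 TPM), genes of muscle fibers -0.390 and epithelial markers -0.392. Mesothelium lines the diaphragm, and its 6 markers summed to 60.1 to 310 TPM in diaphragm and to at most 5.58 TPM in the limb muscles. The part of these cells in the member levels was not tested.

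In soleus the droplet genes were again among those closest to Adipoq, with Plin1 before Cidec. Over 10 libraries Plin1 had r = 0.996 with Adipoq (rho 0.988) and Cidec r = 0.986 (rho 0.976), each with an adjusted permutation p of 4.5e-05, and Cfd had r = 0.972 (rho 1). Lep had r = 0.236 (rho 0.188, adjusted permutation p = 0.518 for r), and Adrb3 r = 0.551 (rho 0.745, adjusted permutation p = 0.108 for r). Ucp1, near 0 in every SOL library, had r = 0.581 (rho 0.466, adjusted permutation p = 0.108 for r), and Pparg r = 0.854 (rho 0.721). Without the 2 libraries farthest from the median of Adipoq, r was 0.991 for Plin1, 0.904 for Adrb3, 0.630 for Lep, 0.544 for Pparg and -0.132 for Ucp1. The low values of Lep and Adrb3, and the high one of Pparg, thus rested in part on those libraries, and the members' values were not tested against each other.

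The first question of the design was how a cachectic melanoma changed the diaphragm. Among mock-treated mice 1 member was called. Cfd, a serine protease of the complement system made by adipocytes, ranged from 139 to 1938 TPM in CAC (median 643 TPM) and from 102 to 928 TPM in NONCAC diaphragms (median 224 TPM). The groups overlapped over most of their range. The mean of Cfd was 811 ± 527 TPM in CAC (SD, n = 10), higher than the 321 ± 255 TPM of NONCAC diaphragms (SD, n = 9) by 1.34 log2 units (SE 0.529; limma adjusted p = 0.0478). In this comparison 33.5% of all genes were called, so that 1 of 10 members is a smaller share than that of all genes. The call is weak. It was lost with library state as a term (0.62 log2 units, SE 0.524; limma adjusted p = 0.474), in high-state libraries alone (1.60 log2 units; adjusted p = 0.114 in limma), and on leaving out any 1 of 21 libraries, with limma adjusted p between 0.0508 and 0.0990. Those were CAC mock 6, 7, 9, 10, 20, 32, 34 and 35, NONCAC mock 61, 62, 64, 65, 66, 68 and 70, CAC rFibcd1 16 and 18, and NONCAC rFibcd1 46, 47, 50 and 59. Markers of other cells moved in these diaphragms too, with 3 of 5 endothelial, 3 of 7 adipocyte progenitor, 2 of 4 Schwann cell and 1 of 4 macrophage markers called higher in CAC. The progenitor sum ran from 251 to 497 TPM in CAC and from 203 to 340.0 TPM in NONCAC libraries, the endothelial sum from 178 to 252 and from 161 to 217 TPM, the macrophage sum from 35.3 to 129 and from 28.8 to 56.5 TPM, and the Schwann cell sum from 38.3 to 84.9 and from 39.1 to 60.3 TPM. None of 4 B cell markers was called by limma or had an unadjusted p under 0.05, though their median difference was 0.84 log2 units, against 0.79 for the macrophage, 0.33 for the endothelial, 0.30 for the progenitor and 0.23 for the Schwann cell markers, and the B cell sum reached 238 TPM in CAC and 37.2 TPM in NONCAC libraries. Their part in the differences of Cfd and Fabp4 was not tested.

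Of the other secreted members, Adipoq averaged 102 ± 81.2 TPM (SD, n = 10) in CAC and 46.1 ± 36.4 TPM (SD, n = 9) in NONCAC mock diaphragms, 1.12 log2 units apart (SE 0.541; limma adjusted p = 0.103). Retn averaged 44.8 ± 28.0 and 20.6 ± 13.5 TPM, 1.12 log2 units apart (limma adjusted p = 0.0734). Lep averaged 1.04 ± 1.99 and 1.12 ± 1.48 TPM, with a difference of -0.19 log2 units. The CAC mean of Lep rested on library 35 at 6.55 TPM, as the next library had 1.38 TPM and library 20 was at 0. The droplet gene Cidec differed by 1.24 log2 units (limma adjusted p = 0.0666) and Plin1 by 0.72 (limma adjusted p = 0.327). Fabp4 differed by 0.64 log2 units (limma adjusted p = 0.0623), Pparg by 0.39 (limma adjusted p = 0.174) and Adrb3 by -0.11 (limma adjusted p = 0.864). The median difference of the members was 0.87 log2 units and that of all genes 0.20. None of the 9 others passed the test in this fit, but some did in others. A limma fit of only these 2 groups called Adipoq, Retn, Cidec and Fabp4 beside Cfd (limma adjusted p between 0.0158 and 0.0439), and Dunn tests called Fabp4 beside Cfd. Leaving out a single library (4, 20, 22, 56 or 63, by gene) brought Adipoq, Retn, Cidec or Fabp4 past the threshold, with limma adjusted p between 0.0274 and 0.0486.

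Among rFibcd1-treated mice no member was called by limma or by Dunn tests, where 9.11% of all genes were by limma. Unadjusted p was 0.183 or more for every member, so that none was under 0.05 before adjustment either. Adipoq averaged 115 ± 109 TPM (SD, n = 10) in CAC and 117 ± 137 TPM (SD, n = 10) in NONCAC diaphragms (0.12 log2 units, SE 0.526; limma adjusted p = 0.910). Cfd averaged 938 ± 790 and 891 ± 977 TPM (0.26 log2 units, SE 0.515), and Adrb3 5.34 ± 3.68 and 10.6 ± 12.6 TPM (-0.59 log2 units, SE 0.434; limma adjusted p = 0.411). Without NONCAC library 56, at 43.8 TPM of Adrb3, that difference was -0.31 log2 units. The median difference of members was 0.20 log2 units and that of all genes 0.08.

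The second question was whether rFibcd1 changed the diaphragm within each melanoma. No member was called by limma or by Dunn tests in CAC mice, where limma called 0.0447% of all genes, nor in NONCAC mice, where it called 0.417%. In CAC mice Adipoq differed by -0.01 log2 units (SE 0.526; limma adjusted p = 0.995), and no member had an unadjusted p under 0.05. In NONCAC mice rFibcd1-treated diaphragms averaged 117 ± 137 TPM of Adipoq (SD, n = 10), against the mock mean of 46.1 ± 36.4 TPM given above (0.98 log2 units, SE 0.541; limma adjusted p = 0.308). Cfd differed by 1.12 log2 units (SE 0.529; limma adjusted p = 0.280), and was the 1 member with an unadjusted p under 0.05. Adrb3 differed by 0.89 log2 units (SE 0.445; limma adjusted p = 0.290) and Ucp1 by 1.35 (SE 0.842; limma adjusted p = 0.344). Without library 56 these differences were 0.68 log2 units for Adipoq, 0.84 for Cfd, 0.61 for Adrb3 and 0.67 for Ucp1. The interaction of melanoma and rFibcd1 reached no member either, with Adipoq at -0.99 log2 units (SE 0.754; limma adjusted p = 0.704), and 0.0223% of all genes were called. The mock groups serve as control here and as the compared groups above, so these effects are not independent.

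In TA, where these genes were low, 6 members could be tested and 1 was called. Fabp4 was at 315, 360, 472, 356 and 354 TPM in CAC libraries 6 to 10 and at 285, 328, 279, 286 and 333 TPM in NONCAC libraries 61 to 65. Library 8 lay above the rest, and the groups overlapped through library 6. The difference was 0.29 log2 units (SE 0.117; limma adjusted p = 0.0498), against 60.2% of all genes called. It was lost on leaving out any library but 6 and 8 (limma adjusted p from 0.0538 to 0.113 without library 7, 9, 10, 61, 62, 63, 64 or 65), and median-ratio scaling turned it to -0.21 log2 units (limma adjusted p = 0.0641). The median difference of all genes in TA was 0.41 log2 units, above that of Fabp4 and above the members' median of 0.20. Markers of endothelium and macrophages, which also express Fabp4, moved in TA too. Of 5 endothelial markers 3 were called higher in CAC and 1 lower, their sum running from 108 to 226 TPM in CAC and from 84.7 to 117 TPM in NONCAC libraries. Of 3 tested macrophage markers all were called higher, and the sum of the 4 listed ran from 5.79 to 40.3 TPM in CAC and from 4.06 to 7.45 TPM in NONCAC libraries. All 5 tested adipocyte progenitor genes were called higher too, and the sum of the 7 listed ran from 146 to 310 TPM in CAC and from 55.1 to 96.5 TPM in NONCAC libraries. Of 4 Schwann cell markers 3 were called higher, their sum running from 24.4 to 51.1 and from 17.0 to 33.4 TPM. The part of these cells in the Fabp4 difference was not tested. Adipoq was at 4.22 ± 1.37 and 3.71 ± 1.06 TPM (SD, n = 5 each; 0.13 log2 units, limma adjusted p = 0.605). Lep, Plin1, Adrb3 and Ucp1 were too low to be tested, with group means of at most 0.805 TPM. Fabp3, the muscle form of the fatty acid carrier, averaged 365 TPM in CAC and 901 TPM in NONCAC TA (-1.30 log2 units, SE 0.189; limma adjusted p = 0.00063).

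In soleus 1 of 9 tested members was called, and it was the receptor. Adrb3 was at 0.387, 1.66, 0.626, 0.574 and 0.817 TPM in CAC libraries 6 to 10 and at 5.21, 1.35, 4.23, 1.33 and 3.97 TPM in NONCAC libraries 61 to 65. The groups overlapped only through CAC library 7, which lay above NONCAC libraries 62 and 64 and is the one with the fast myosin. Without library 7 the difference was -1.28 log2 units (limma adjusted p = 0.0132). Adrb3 was lower in CAC by -1.14 log2 units (SE 0.294; limma adjusted p = 0.0163), where 25.1% of all genes were called, and it stayed called on leaving out each of the 10 libraries (limma adjusted p from 0.0101 to 0.0434). Lep was at 0.418, 2.12, 0.186, 5.77 and 2.14 TPM in CAC and, as given above, between 1.70 and 7.93 TPM in NONCAC libraries. The difference of Lep was -1.21 log2 units (SE 0.457; limma adjusted p = 0.0729), and it passed the threshold without library 9 or library 64 (limma adjusted p between 0.0170 and 0.0355).

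The other members did not follow them. Adipoq was at 16.02, 108, 253, 81.6 and 59.5 TPM in CAC and at 92.1, 41.8, 70.2, 25.5 and 77.6 TPM in NONCAC SOL libraries. Library 8 was the highest and library 6 the lowest, both CAC, and the NONCAC libraries lay between them. The difference was 0.40 log2 units (SE 0.598; limma adjusted p = 0.662), -0.04 without library 8 and 0.93 without library 6. Library 8 also held 4129 TPM of Cfd, 187 TPM of Retn and 18.1 TPM of Pparg, where the next SOL libraries held 908, 33.1 and 7.87 TPM. Plin1 differed by 0.08 log2 units (SE 0.555), Cidec by 0.78 (SE 0.573) and Fabp4 by 0.32 (SE 0.366), and the median difference of members was 0.32 log2 units against 0.09 for all genes. Without library 8 the difference of Fabp4 was -0.02 log2 units and that of Cfd -0.10, while the differences of Plin1, Retn and Pparg were -0.33, -0.25 and -0.31. Without library 6 those of Plin1, Retn and Pparg were 0.60, 1.00 and 0.29. Cidec was called without library 6 (limma adjusted p = 0.0345). Markers of other cells also moved in soleus. The progenitor sum ran from 205 to 374 TPM in CAC and from 137 to 218 TPM in NONCAC libraries (of 6 tested, 1 called higher and 1 lower), and the macrophage sum from 14.6 to 102 and from 14.5 to 23.1 TPM (1 of 4 called higher). The Schwann cell sum ran from 28.5 to 228 and from 30.6 to 78.8 TPM (0 of 4 called by limma, and none with an unadjusted p under 0.05) and the endothelial sum from 141 to 223 and from 148 to 189.8 TPM (of 5, 1 called higher and 1 lower), while 2 of 8 genes of muscle fibers were called higher. Mesothelial and B cell markers were too low to be tested, and the part of other cells in the member differences was not tested.

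No member's TPM separated all libraries of the groups in any comparison of melanomas or treatments. Over all genes the share that did so was 4.36% in mock diaphragms, 0.0521% in rFibcd1 diaphragms, 51.7% in TA and 20% in SOL, and for rFibcd1 against mock 0% in CAC and 0.41% in NONCAC mice. Between diaphragm and SOL it was 28.8%, again with no member.

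The effect of the melanoma was compared between muscles directly. No member was called for a different effect between diaphragm and TA, diaphragm and SOL, or TA and SOL. Limma called 5.04%, 2.52% and 20.4% of all genes in these contrasts. The unadjusted p of Adrb3 between diaphragm and SOL was 0.0670 (difference of effects 1.03 log2 units, SE 0.546; limma adjusted p = 0.362) and that of Lep 0.0710 (1.02 log2 units, SE 0.551), and no member fell under 0.05 in any of these contrasts. Thus the fall of Adrb3 in soleus is not shown to differ from its small difference in diaphragm.

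Since the abundance of adipocyte RNA varied so widely within groups, each member was also set against Adipoq of the same library. This comparison was chosen after the data had been seen. Adrb3 was at 3.58 TPM per 100 TPM of Adipoq in the median CAC mock diaphragm (0.987 to 9.36) and at 8.74 in the median NONCAC mock diaphragm (6.56 to 11.6). Of the 10 CAC libraries 8 lay below every NONCAC library, and libraries 10 and 22 lay within their range. CAC mock library 20 departed the most, with Adipoq at 92.3 TPM and Cidec at 74.3 TPM but Adrb3 at 0.911 TPM, Plin1 at 2.71 TPM and Lep listed at 0. Library 34 held 89.7 TPM of Adipoq, 12.2 TPM of Plin1, 1.34 TPM of Adrb3 and 0.0162 TPM of Lep. With rFibcd1 the medians were 5.47 (3.30 to 7.83) in CAC and 9.32 (6.73 to 12.6) in NONCAC diaphragms, and 7 of 10 CAC libraries lay below every NONCAC library. In SOL the medians were 1.37 (0.247 to 2.42) and 5.21 (3.22 to 6.02), and the groups did not overlap. The ratio to Adipoq did not overlap in SOL for 0.644% of all genes and for 2 of the 9 other members, Adrb3 and Plin1. A gene that does not follow Adipoq carries the spread of Adipoq into its ratio, so that this share is no measure of how unusual a member is. In TA they were 0.909 and 3.54, at Adrb3 levels of at most 0.219 TPM, and the groups overlapped. No member's ratio separated the groups in TA or diaphragm, where 7.67% of all genes in TA, 0.0223% in mock diaphragms and 0% in rFibcd1 diaphragms did so. In each of these 4 comparisons the CAC median was below the NONCAC median.

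**Figure D3:**
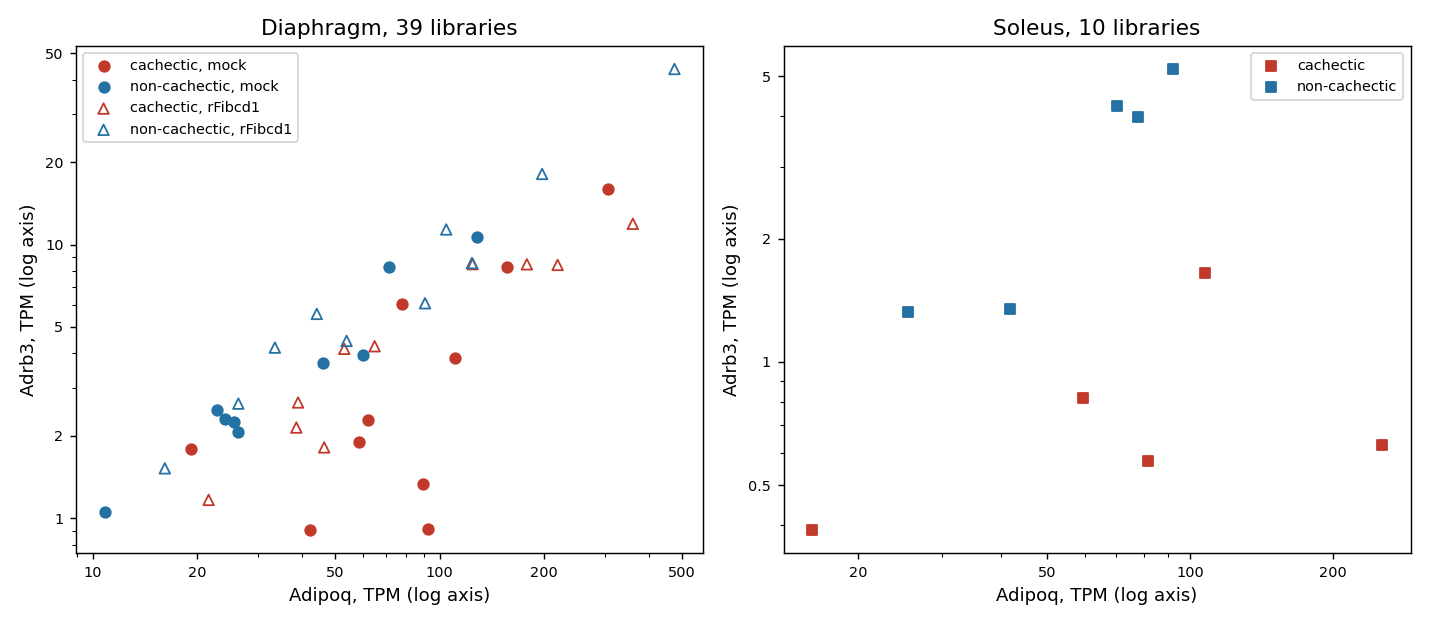
Adrb3 against Adipoq in TPM (both log axes) in 39 diaphragm libraries (left) and 10 SOL libraries (right), red for cachectic and blue for non-cachectic, circles for mock, open triangles for rFibcd1 and squares for SOL. Most red points lie below the blue ones at a like level of Adipoq, with CAC mock libraries 8, 20 and 34 between 0.902 and 1.34 TPM of Adrb3.

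The TPM of Adrb3 itself, as given above, differed by -0.11 log2 units in mock diaphragms, -0.59 with rFibcd1 and -1.14 in SOL. That of Adipoq differed by 1.12, 0.12 and 0.40 log2 units. The values below are of Adrb3 relative to Adipoq, and in mock diaphragms they show no fall of Adrb3 itself. With the Adipoq level as a term in limma, Adrb3 was lower in CAC than in NONCAC mock diaphragms by -0.94 log2 units (SE 0.207; limma adjusted p = 0.00165), where 20.8% of all genes were called and 2.53% were called lower. It was lower by -0.68 log2 units (SE 0.191; limma adjusted p = 0.0181) with rFibcd1, where 11.8% were called and 2.62% called lower, and by -1.24 log2 units (SE 0.262; limma adjusted p = 0.00652) in SOL, where 26.7% were called and 8.46% called lower. Adrb3 was called in all 3 on leaving out each library, and with Cidec in place of Adipoq as the term (-1.06, -0.78 and -1.36 log2 units; limma adjusted p of 0.000562, 0.0062 and 0.00696). Cidec was the gene most like Adipoq in diaphragm, so that this swap is no independent check. In high-state diaphragm libraries alone the differences were -1.004 log2 units in mock (9 against 3 libraries; limma adjusted p = 0.103) and -0.58 with rFibcd1 (8 against 6; limma adjusted p = 0.225), and neither was called. Library state as a term left -0.86 log2 units (limma adjusted p = 0.0069) and -0.64 (limma adjusted p = 0.0274). The interaction with rFibcd1 was 0.26 log2 units (SE 0.280; limma adjusted p = 0.927; 0% of all genes were called), so that the difference is not shown to change with treatment. The numbers 6 to 10 and 61 to 65 occur in the mock diaphragm groups and in SOL, and those libraries may share mice.

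Lep behaved in part like Adrb3. It was low in mock diaphragms, with medians of 0.305 TPM in CAC and 0.706 TPM in NONCAC and 2 libraries of each group at 1 TPM or more. Its own TPM differed there by -0.19 log2 units, as given above, and the values below are relative to Adipoq. Lep stood at 0.540 TPM per 100 TPM of Adipoq in the median CAC mock diaphragm (0 to 2.14) and at 2.02 in the median NONCAC one (0.679 to 3.78), and 6 of 10 CAC libraries lay below every NONCAC library. With rFibcd1 the medians were 0.888 and 1.33, in SOL 2.61 (0.0734 to 7.08) and 8.94 (5.94 to 11.9). With Adipoq as a term Lep was called lower in CAC mock diaphragms (-0.76 log2 units, SE 0.267; limma adjusted p = 0.0393), not with rFibcd1 (-0.07; limma adjusted p = 0.878) and not in SOL (-1.28, SE 0.471; limma adjusted p = 0.0663). In SOL it was called without library 8, 9 or 64 (limma adjusted p between 0.0148 and 0.0393). The interaction of Lep was 0.69 log2 units (SE 0.361; limma adjusted p = 0.817). Its call in mock diaphragms was lost with library state as a term (limma adjusted p = 0.109) and without any 1 of libraries 7, 8, 20, 32, 34, 56, 62, 63, 64, 65 and 67 (limma adjusted p up to 0.128).

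**Figure D4:**
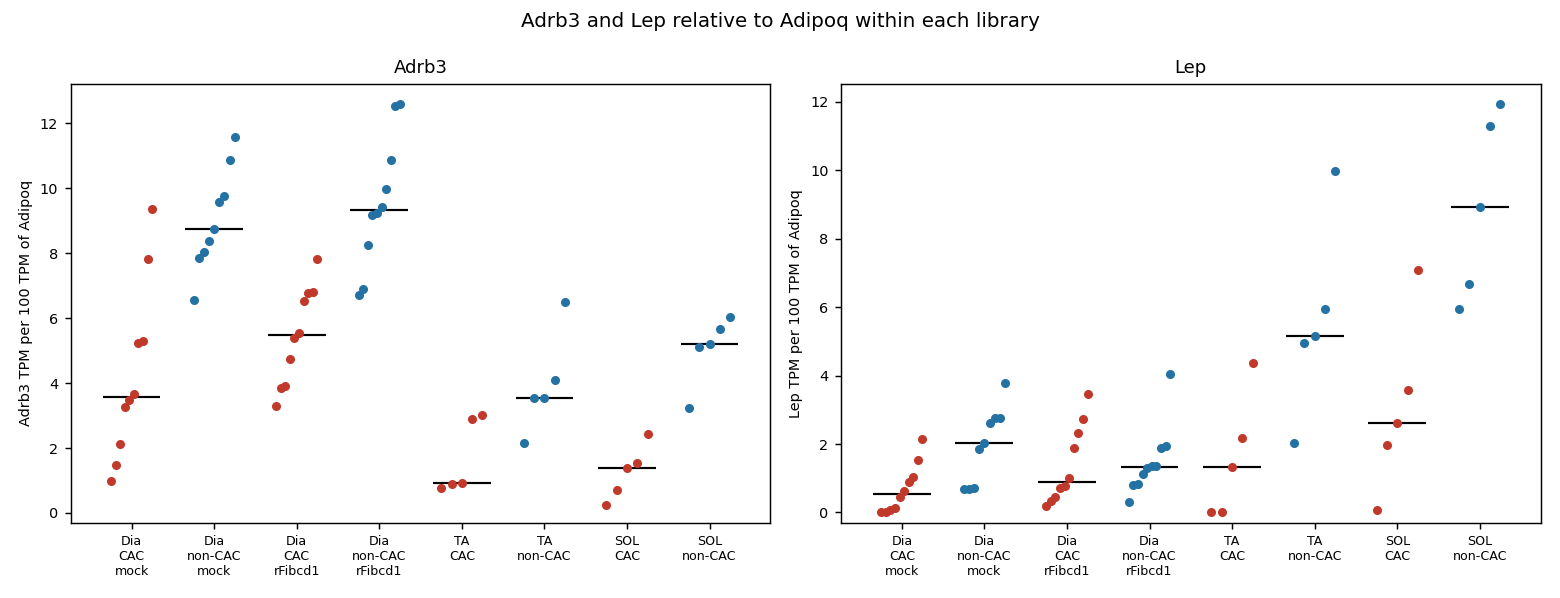
TPM of Adrb3 (left) and Lep (right) per 100 TPM of Adipoq in the same library, 1 point per library in 8 groups, red for cachectic and blue for non-cachectic, with black lines at the medians. The CAC medians lie below the NONCAC medians of the same muscle and treatment for both genes.

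With the same term no member was called by limma for rFibcd1 against mock in CAC mice (0.0596% of all genes called) or in NONCAC mice (0.276%), nor between melanomas in TA (53.4%), where 5 members other than Adipoq could be tested. Before adjustment, p was under 0.05 for Cidec (-0.25 log2 units) and Adrb3 (0.42) in CAC mice, for Cidec (-0.22) in NONCAC mice and for Fabp4 (0.26) in TA.

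Plin1 and Cidec also differed against Adipoq in soleus, where, as given above, 26.7% of all genes were called and 8.46% called lower with the term. Plin1 was at 18.6 TPM per 100 TPM of Adipoq in the median CAC library (16.9 to 22.6) and 24.1 in the median NONCAC library (23.6 to 26.9), with no overlap. Cidec had medians of 89.7 and 67.5. With Adipoq as a term Plin1 was lower by -0.29 log2 units (SE 0.0778; limma adjusted p = 0.0195) and Cidec higher by 0.41 (SE 0.116; limma adjusted p = 0.0255). Of 10 other lipid droplet and lipolysis genes 1 was called higher with the term and none lower. Plin1 was not called without library 6 or 62, nor Cidec without library 10, 61, 62 or 65 (limma adjusted p between 0.0502 and 0.147). Between NONCAC diaphragm and SOL, with the same term and 52.6% of all genes called, Lep (-1.30 log2 units) and Plin1 (-0.32) were lower in diaphragm, and Adrb3 (0.64), Retn (0.37) and Cidec (0.33) were higher. Cidec was not called there without library 62 or 63 (limma adjusted p of 0.0614 and 0.0711).

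Ucp1 was a matter of a few libraries. Its median was 0.345 TPM in CAC mock, 0.0872 TPM in NONCAC mock, 1.22 TPM in CAC rFibcd1 and 0.381 TPM in NONCAC rFibcd1 diaphragms, and 10 of 39 libraries were at 1 TPM or more. Library 56 (NONCAC rFibcd1) stood at 217 TPM, library 18 at 56.2 TPM and library 5 at 51.4 TPM (both CAC rFibcd1), and library 35 at 49.7 TPM (CAC mock), while no NONCAC mock library was above 0.717 TPM. In the limb muscles it was at most 0.114 TPM and listed at 0 in 12 of 20 libraries. No comparison of diaphragm groups called Ucp1. Of 15 other genes of brown and beige fat, 3 had these same 4 libraries as their 4 highest diaphragms: in the order 56, 5, 18 and 35 the droplet protein Cidea was at 99.0, 46.6, 29.0 and 23.6 TPM, the fatty acid elongase Elovl3 at 18.2, 11.03, 8.52 and 4.02 TPM, and the proton channel Otop1 at 7.94, 3.89, 2.96 and 1.81 TPM. For the potassium channel Kcnk3, 3 of the 4 were among its 4 highest. The rest of the list did not share these libraries to that extent, with 2 among the 4 highest for Tmem26, 1 each for Dio2, Cox7a1, Cited1 and Pm20d1, and none for Ppargc1a, Prdm16, Cox8b, Cpt1b, Zic1 and Tbx1. Over 39 libraries the correlation with Ucp1 was r = 0.899 for Otop1, 0.873 for Cidea, 0.817 for Elovl3, 0.789 for Kcnk3, 0.510 for Tmem26 and 0.383 for Dio2. For the other 9 it lay between -0.371 (Cpt1b) and 0.108 (Pm20d1). Cox7a1, Cox8b, Cpt1b and Ppargc1a are also expressed in muscle fibers, and Zic1, Tmem26 and Cited1 were below 1 TPM in every diaphragm. SOL library 8 held Cidea at 24.99 TPM and Elovl3 at 25.7 TPM with Ucp1 at 0.114 TPM.

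**Figure D5:**
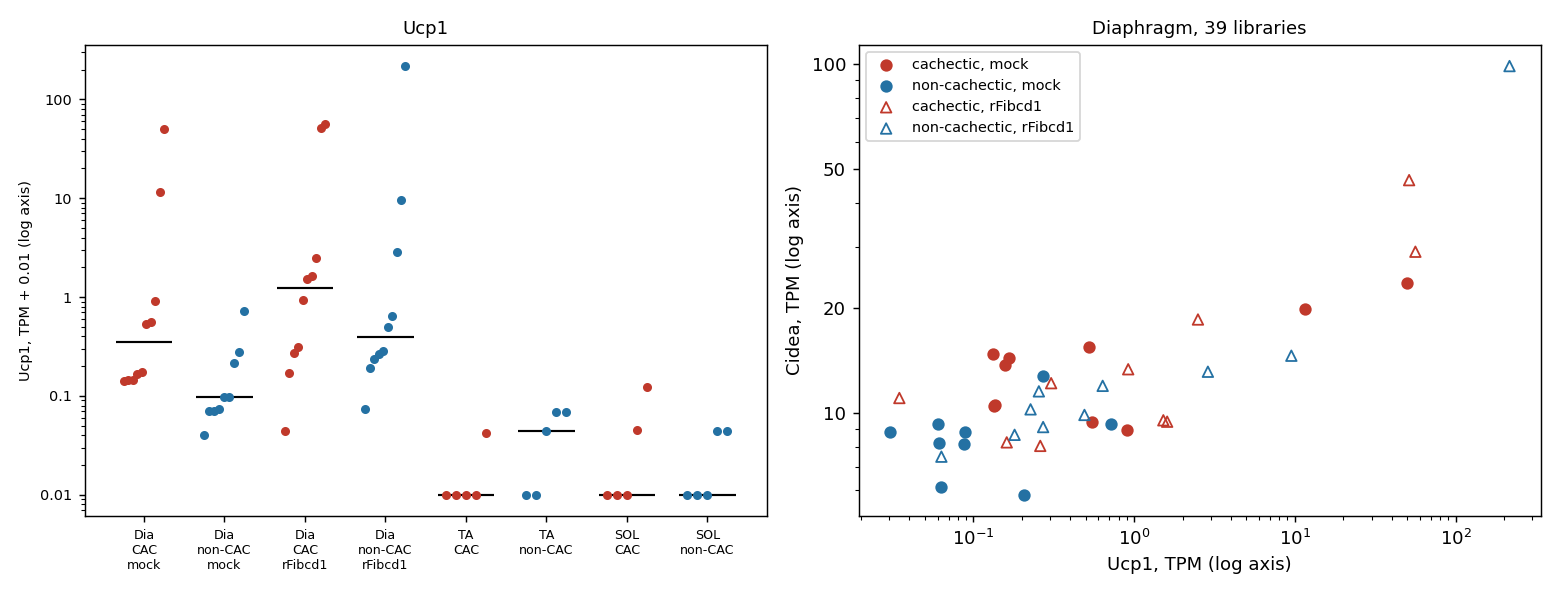
Left, Ucp1 as TPM + 0.01 (log axis) in the 8 groups, 1 point per library, red for cachectic and blue for non-cachectic, with black lines at the medians. Right, Cidea against Ucp1 in TPM (both log axes) in 39 diaphragm libraries, circles for mock and open triangles for rFibcd1. Libraries 56, 5, 18 and 35 are the 4 points farthest right, and library 56 lies above the rest in both panels.

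Receptors and lipid genes related to the members were examined last, by the lists. In mock diaphragms 4 of 10 lipid droplet and lipolysis genes were called higher in CAC, a share near the 33.5% of all genes called there, among them Plin4 (373 and 185 TPM; 0.91 log2 units, limma adjusted p = 0.00234) and the lipase Pnpla2 (349 and 212 TPM; 0.69 log2 units, limma adjusted p = 0.00102), both also expressed in muscle fibers. Of 14 genes of fatty acid and triglyceride synthesis only Dgat1 was called in mock diaphragms, and it was higher in CAC. In TA, where 60.2% of all genes were called, 5 of 10 droplet and lipolysis genes were called higher and 1 lower, and 6 of 13 synthesis genes higher and 1 lower. In SOL, where 25.1% were, 1 of 10 was called higher (Plin4) and 3 of 14 synthesis genes lower, with Gpam, the first enzyme of triglyceride synthesis, at 69.0 and 197 TPM (-1.49 log2 units, limma adjusted p = 1.68e-05). In rFibcd1 diaphragms none of either list was called. Of 9 genes of fatty acid and glycerol uptake, 2 were called higher and 1 lower in mock diaphragms, 1 higher and 1 lower in rFibcd1 diaphragms and 2 lower in SOL, and of 8 tested in TA 3 were higher and 1 lower. Acsl1, which activates fatty acids, was the lower gene or 1 of them in each, from -0.51 to -0.71 log2 units. Of 8 adipogenic transcription factors, 4 were called higher in mock diaphragms, 2 higher and 1 lower in rFibcd1 diaphragms, 6 higher in TA and 3 higher in SOL. In rFibcd1 diaphragms, as given above, 9.11% of all genes were called. Cebpd, an early factor of adipogenesis that is also induced in inflammation, was among the higher ones each time, from 1.28 log2 units (rFibcd1 diaphragm) to 2.96 (TA). Of 15 receptors and relatives of the members, 5 were called higher in mock diaphragms and none with rFibcd1, and of 14 tested in each limb muscle 7 were higher and 2 lower in TA and 3 higher and 3 lower in SOL. These shares are near those of all genes called in mock diaphragms and TA, below the 9.11% with rFibcd1 and above the 25.1% in SOL. Adipor1 and Adipor2, the receptors of adiponectin, were both called higher in CAC in mock diaphragms (0.35 and 0.40 log2 units) and TA (0.68 and 0.41, where the median of all genes was 0.41). Cdh13, which binds adiponectin at the cell surface, was called higher in SOL (80.6 and 39.4 TPM, 0.89 log2 units). Its melanoma effect was lower in TA than in SOL by -1.18 log2 units (SE 0.284; limma adjusted p = 0.00482), and between diaphragm and SOL the difference was -0.75 (SE 0.248; limma adjusted p = 0.0983).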

How the data were processed

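RNA-seq was done on 59 muscle samples in 8 groups, placed by their labels. The authors deposited 1 table of TPM, which, per the study's methods, came from reads trimmed and aligned to GRCm38 (mm10) with CLC Genomics Workbench 12.0.1. The gene annotation is not given in the sources used here, and labels and methods name different kits and instruments. TPM keeps no depth, so no counting error could be given. Column numbers were not tied to labelled replicates, and the labels do not say which libraries shared a mouse. Libraries of the same number deviated together (correlation above 0.1) in 10 of 10 pairs of diaphragm and TA, 10 of 10 of TA and SOL and 7 of 10 of diaphragm and SOL, 27 of 30 in all. P-values measure the spread between these libraries.

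Values were analyzed as log2(TPM + 1) with limma 3.58.1 (lmFit, contrasts.fit, eBayes with trend) in R 4.3.3, two-sided, on genes at 1 TPM or more in as many libraries as the smallest group of the fit, with Benjamini-Hochberg adjustment over all genes and calls at 0.05. The 4 diaphragm groups, TA, SOL and the 6 groups without rFibcd1 were fitted separately, giving 13 comparisons. The design planned here differs from the Kruskal-Wallis and Dunn tests of the study, which were tried as an alternative. Correlations had 100000 permutations (Python 3.11.15). Scripts were tested on simulated data. Fits with Adipoq as a term and correlations with summed markers were chosen after seeing the data. The members and the gene lists were chosen with earlier results of these data known. A rule set which list genes could be named. These were the 3 called genes of each list with the largest change and a mean of at least 5 TPM. All members, the 10 genes most like Adipoq and any listed receptor or relative of the members could also be named. Not every gene that was allowed was named. Other genes (Myh4, Myh7 and those shown with Ucp1) were chosen after their values were seen. Alternatives were a pseudocount of 0.1, no filter, median-ratio scaling, Dunn tests, fits of 2 groups, library state, a replicate block and leaving out each library.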

Additional observations from a re-analysis of the deposited data

Results flagged for a closer look

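Of 80 sets of values (10 genes in 8 groups), 5 had a library apart from the rest by Dixon's gap ratio, the gap to the next library over the range of the group, both on log2(TPM + 1). Chance alone flags about 1 in 20. In CAC mock diaphragms library 35 stood apart for Lep (6.55 TPM, next 1.38 TPM, ratio 0.572) and for Fabp4 (2809 TPM, next 1288 TPM, ratio 0.502), and it was also high in Ucp1. For Ucp1, library 56 stood apart in NONCAC rFibcd1 diaphragms (217 TPM, next 9.51 TPM, ratio 0.569) and library 68 in NONCAC mock diaphragms (0.717 TPM, next 0.271 TPM, ratio 0.589). In CAC TA, library 6 held 0.0319 TPM of Ucp1 and the other 4 libraries were at 0, a ratio of 1.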

How the results depend on the processing

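The count of members called in CAC against NONCAC mock diaphragms (1) was 0 without the filter, with median-ratio scaling, with library state as a term and in high-state libraries only, 2 by Dunn tests and 5 in a fit of only the 2 groups, and ranged from 0 to 4 on leaving out 1 library. In TA (1) it was 0 without the filter and with median-ratio scaling, which turned Fabp4 to -0.21 log2 units, and 0 to 1 on leaving out 1 library. In SOL (1) it was 0 by Dunn tests and 1 to 2 on leaving out 1 library (2 without library 6, 9 or 64), and between diaphragm and SOL (1) it was 0 by Dunn tests. Dunn tests of 5 against 5 libraries recovered no changed gene in simulated data. That simulation changed far fewer genes than limma called in SOL, so it does not show why the SOL call was lost. With Adipoq as a term, the count in mock diaphragms (2) was 1 with median-ratio scaling or library state as a term, 0 in high-state libraries and 1 to 2 on leaving out 1 library. It was 0 in rFibcd1 diaphragms (1) and 1 (Cidec) for rFibcd1 against mock in CAC mice (0) in high-state libraries. On leaving out 1 library it ranged from 1 to 4 in SOL (3; 1 without library 62), 0 to 1 in TA (0; 1 without library 6 or 8) and 5 to 6 between diaphragm and SOL (5). The cause of these shifts was not tested.

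Library numbers 6 to 10 and 61 to 65 recur in the 3 muscles. A replicate block on these numbers gave 8 members called between diaphragm and TA, 1 between diaphragm and SOL, 9 between TA and SOL and 0 in the 3 contrasts of the melanoma effect, the counts without the block. Over all genes the block raised the calls in those 3 contrasts from 681 to 2193 (diaphragm against TA), 340 to 918 (diaphragm against SOL) and 2750 to 5677 (TA against SOL). Under alternatives other than leaving out a library, 871 values of single members kept their direction and their side of the threshold, 16 lost the call, 8 gained one, 53 changed sign without being called and 1, Fabp4 in TA, changed sign with a call involved.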
